A study of Mus musculus with 2 samples.

Results

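Guanylate-binding proteins (GBPs) and immunity-related GTPases (IRGs) are proteins that interferon switches on. Their levels were followed through the cell types of mouse brain tumours. The 10 genes were Gbp2, Gbp3, Gbp4, Gbp5, Gbp6 and Gbp7 of the GBP family and Irgm1, Irgm2, Igtp and Iigp1 of the IRG family, out of 31053 genes counted. The genes were selected with their values in these cells known, and the cell groups were selected on measured UMIs of the same cells, so levels between cell groups are given as a description with no test. A UMI (unique molecular identifier) is the tag by which 1 captured RNA molecule is counted once. All cells came from 1 group, tumours with mutant IDH1 (mIDH1) in C57BL/6 mice at the symptomatic stage, measured as droplet libraries 1 and 2. The labels name no age, no animals and no comparison group, and do not say that the libraries came from separate animals, so the spread between the 2 libraries may be technical.

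Interferon-gamma, secreted mainly by T cells and natural killer cells, signals through its receptor and the kinases JAK1 and JAK2. Promoters that answer to interferon-gamma often hold short sites known as GAS, and those that answer to type I interferons hold sites known as ISRE, which IRF1 also binds. GBPs and IRGs assemble on membranes of vacuoles and bacteria inside the cell, and are best known from macrophages that meet Toxoplasma, Chlamydia or Salmonella. Irgm1, Irgm2 and Igtp (also called Irgm3) belong to the regulatory IRGs, which keep the effector IRGs such as Iigp1 (Irga6) from acting on the cell's own membranes. In the brain both families are inducible in microglia, astrocytes and other resident cells.

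RefSeq promoter windows of build GRCm38.p6 (250 bases before to 50 bases after a transcript start) were found for 7 of the 10 genes, with 8 windows because Gbp3 had 2 start sites. Gbp4, Gbp6 and Iigp1 had no window in this search, so whether their promoters hold the patterns was not tested. Each window was searched on both strands for GAAANNGAA, a core of the ISRE, and for TTCNNNGAA, the GAS pattern, which reads the same on both strands and was counted once. All 7 genes had an ISRE core match in at least 1 window, against 8.56% of 32851 mouse windows, and 4 of the 7 (Gbp5, Gbp7, Irgm2 and Igtp) had a GAS match, against 8.3%. The second Gbp3 window held neither. Within Gbp3 and within Irgm1, the 2 ISRE matches of the first window overlapped. A match describes letters only and shows no binding. The 5 windows below are shown because they hold the patterns of a gene with an ISRE match alone (Gbp2, Irgm1), of the gene that differed most between tumour cells and macrophages (Gbp5), and of a pair of neighbouring IRG genes (Igtp, Irgm2). Capitals mark the ISRE and GAS matches, and each sequence runs 5′ to 3′ along the strand of its gene.
Gbp2 (chr3:142620413-142620712, plus strand): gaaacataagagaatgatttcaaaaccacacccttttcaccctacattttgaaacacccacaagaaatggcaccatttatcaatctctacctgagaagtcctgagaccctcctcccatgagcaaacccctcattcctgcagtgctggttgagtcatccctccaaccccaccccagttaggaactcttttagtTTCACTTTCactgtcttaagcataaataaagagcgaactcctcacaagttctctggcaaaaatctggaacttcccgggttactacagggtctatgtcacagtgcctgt
Gbp5 (chr3:142496684-142496983, plus strand): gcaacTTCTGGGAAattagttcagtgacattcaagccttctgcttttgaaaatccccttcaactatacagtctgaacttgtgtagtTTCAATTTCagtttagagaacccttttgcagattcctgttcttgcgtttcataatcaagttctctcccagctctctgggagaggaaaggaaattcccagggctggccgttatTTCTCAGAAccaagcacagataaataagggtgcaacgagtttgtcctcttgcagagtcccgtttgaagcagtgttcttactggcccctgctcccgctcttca
Irgm1 (chr11:48871371-48871670, minus strand): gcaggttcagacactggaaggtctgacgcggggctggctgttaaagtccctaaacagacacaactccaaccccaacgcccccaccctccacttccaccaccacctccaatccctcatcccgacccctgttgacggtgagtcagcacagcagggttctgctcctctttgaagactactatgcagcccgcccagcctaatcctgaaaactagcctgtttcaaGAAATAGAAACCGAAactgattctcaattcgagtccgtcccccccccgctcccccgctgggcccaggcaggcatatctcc
Igtp (chr11:58199306-58199605, plus strand): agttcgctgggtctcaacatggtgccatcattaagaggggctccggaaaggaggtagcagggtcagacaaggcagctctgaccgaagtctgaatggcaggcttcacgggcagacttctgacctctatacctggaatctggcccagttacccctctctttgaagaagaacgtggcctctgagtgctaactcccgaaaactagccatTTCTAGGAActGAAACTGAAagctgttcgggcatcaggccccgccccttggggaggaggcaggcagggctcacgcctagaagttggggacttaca
Irgm2 (chr11:58214727-58215026, plus strand): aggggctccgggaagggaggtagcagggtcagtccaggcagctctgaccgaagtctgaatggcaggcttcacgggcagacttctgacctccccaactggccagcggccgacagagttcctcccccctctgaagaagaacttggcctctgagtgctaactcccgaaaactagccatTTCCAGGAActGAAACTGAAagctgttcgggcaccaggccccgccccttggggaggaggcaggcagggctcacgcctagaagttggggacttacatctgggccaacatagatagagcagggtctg
In Igtp and Irgm2 a GAS match was followed by an ISRE match in the same spacing, and the longest run of identical letters between these windows was 61 bases. In Gbp2 the ISRE match began 58 bases before the start site, and in Irgm1 the first of its matches began 30 bases before it. Gbp5 held its GAS matches 245 and 52 bases before the start and its ISRE match 164 bases before it.

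Library 1 held 63001350 UMIs in 2704 barcodes and library 2 held 58915133 UMIs in 2266 barcodes. Cells with at least 200 genes and at most 15% mitochondrial UMIs were kept, 1740 in library 1 and 1446 in library 2, with a median of 32091 and 35769 UMIs per cell. Both libraries shared 10 barcodes, of which 9 were kept in both, and 1 cell of each library in the gates carried such a barcode. Tumour cells were those with at least 1000 CPM of Nras (a gene's UMIs per 1000000 UMIs of the cells), split by Cd74, the invariant chain of MHC class II: 255 cells had at least 1 Cd74 UMI and 1726 had 0. Leukocyte gates held 498 macrophages or microglia (C1qa at least 5 UMIs), 105 monocytes (Ly6c2 at least 1 and Lyz2 at least 5), 50 neutrophils (S100a8 plus S100a9 at least 10), 282 basophil-gate cells (Mcpt8 at least 1), 121 dendritic-gate cells (Ccr7 at least 1) and 69 T cells (Cd3e at least 1), both libraries together.

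Gates overlapped, and cells that also met another gate held 91.5% and 92.0% of the UMIs of the basophil gate in libraries 1 and 2, 73.8% and 70.5% of the dendritic gate, 68.5% and 85.9% of the neutrophil gate, 61.9% and 46.2% of the monocyte gate, 47.7% and 50.1% of the T gate, and 22.3% and 21.1% of the macrophage gate. In the basophil gate, cells that also met a tumour gate held 90.02% of the UMIs in library 1 and 90.7% in library 2. Their median Mcpt8 count was 1 UMI in each library, against 8 and 6.5 in cells of the basophil gate alone. In the dendritic gate such cells held 58.3% and 54.2% of the UMIs, and in the neutrophil gate of library 2 a single tumour-gate cell held 31.3%. Levels are therefore given for all cells of a gate or for cells that met 1 gate only, as named, and for both where the leukocyte gates other than macrophages are described. Cells of 1 gate only were 230 Cd74-positive tumour cells, 441 macrophages or microglia, 64 monocytes, 31 neutrophils, 138 basophils, 76 dendritic cells, 52 T cells and 1586 Cd74-0 tumour cells. The summed markers of each type stood highest in cells of its own gate alone. Each list holds the gene or genes on which its gate was cut, so this order was set in part by the gates. The basophil list reached 5438 and 3479 CPM in basophils, the dendritic list 5773 and 4416 CPM in dendritic cells, and the T and NK list 8506 and 6456 CPM in T cells. Sox2, a transcription factor of neural stem cells, measured 22.2 and 16.9 CPM in Cd74-positive and 18.1 and 16.8 CPM in Cd74-0 tumour cells, and was at 0 in macrophages, monocytes, neutrophils and T cells of 1 gate. In cells of 1 gate the summed tumour markers, Nras and Sox2 among them, measured 579 and 584 CPM in basophils and 301 and 355 CPM in dendritic cells. They measured 96.1 and 76.4 CPM in macrophages, 77.7 and 155 CPM in monocytes, 60.8 and 0 CPM in neutrophils, and 61.9 and 53.0 CPM in T cells. Cd74-0 tumour cells had 3308 and 3709 CPM. B cell markers reached 171 and 206 CPM in the dendritic cells. The part of tumour RNA in the basophil and dendritic values, and of B cells in the dendritic values, was not tested.

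The summed level of the 10 genes in macrophages, monocytes and Cd74-positive tumour cells was above that of Cd74-0 tumour cells in both libraries. The sum was 1382 and 1179 CPM in Cd74-positive tumour cells, 1483 and 1452 CPM in macrophages and microglia, 1229 and 1706 CPM in monocytes, and 521 and 542 CPM in Cd74-0 tumour cells (libraries 1 and 2). The sum in Cd74-positive tumour cells averaged 1280 ± 143 CPM, against 532 ± 14.6 CPM in Cd74-0 tumour cells (SD, n = 2 libraries), and the groups did not overlap. In all cells of the other gates it was 737 and 2050 CPM in neutrophils, a wide split between the libraries, 431 and 535 CPM in basophil-gate cells, 828 and 479 CPM in dendritic-gate cells, and 622 and 1010 CPM in T cells. In cells of 1 gate it was 1337 and 1487 CPM in neutrophils, 834 and 902 CPM in basophils, 446 and 749 CPM in dendritic cells, 673 and 843 CPM in T cells, and 532 and 558 CPM in Cd74-0 tumour cells. Monocytes of 1 gate had 1190 and 1739 CPM. The makeup of the sum differed: GBPs gave 845 and 812 CPM of it in macrophages and IRGs gave 638 and 640 CPM, whereas in Cd74-positive tumour cells GBPs gave 552 and 458 CPM and IRGs 829 and 721 CPM. In Cd74-0 tumour cells GBPs gave 184 and 208 CPM and IRGs 337 and 334 CPM.

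**Figure D1:**
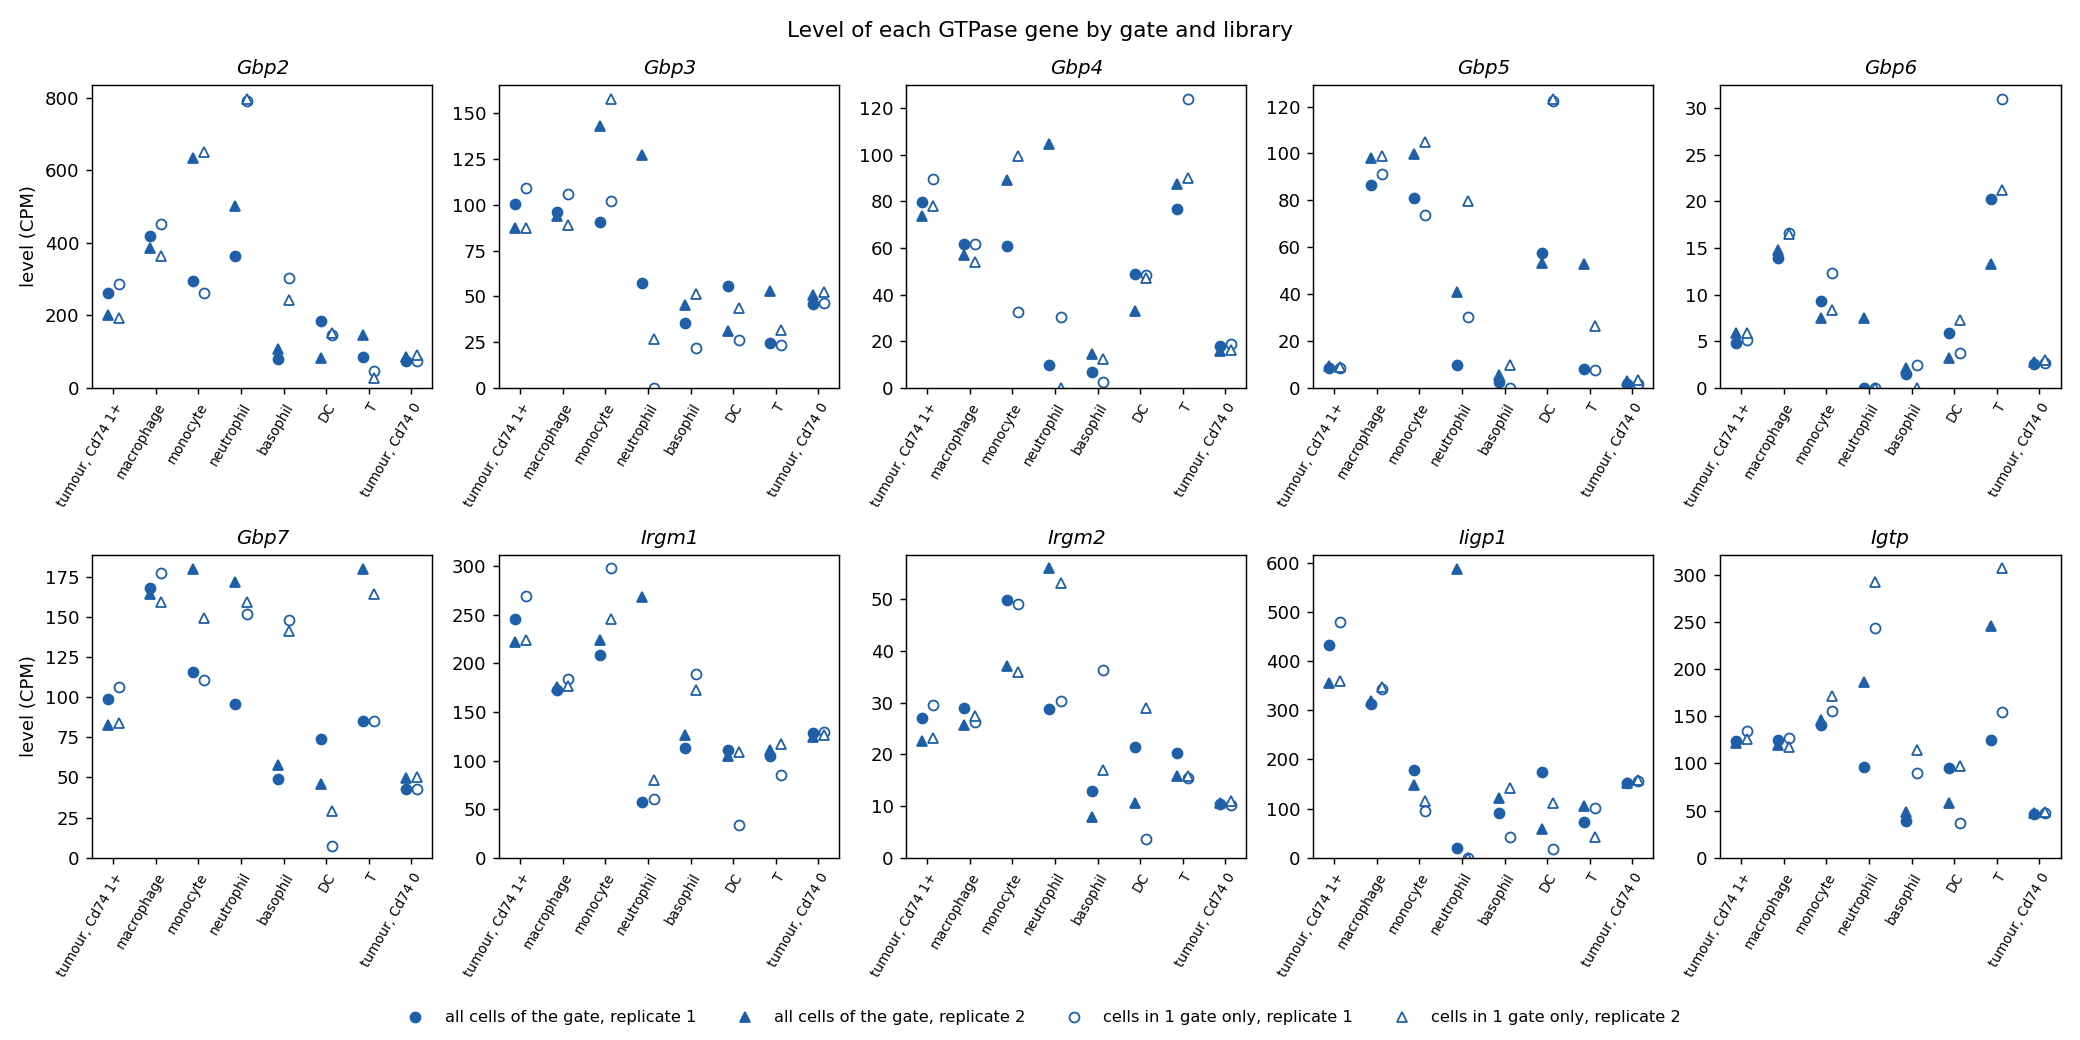
Level (CPM, linear axis from 0) of each of the 10 GTPase genes in the 8 gates; circles are replicate 1 and triangles replicate 2, filled for all cells of a gate and open for cells in 1 gate only, with no error bars because each point is 1 library. Gbp5 is high in macrophages, monocytes and dendritic cells and low in both tumour gates, while Irgm1 and Iigp1 are as high in tumour cells with Cd74 as in macrophages or higher.

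A gene was called higher in a gate when its (CPM + 1) was at least 2 times that of Cd74-0 tumour cells in both libraries. All 10 GTPase genes passed the filter of a mean of 5 CPM, among 10025 genes. In Cd74-positive tumour cells 6 of the 10 were called higher (Gbp2, Gbp4, Gbp5, Irgm2, Iigp1 and Igtp), where 0.758% of all genes tested were, a split on which the choice of genes already rests. In macrophages and microglia 8 of 10 were called higher against 20.6% of all genes, in monocytes 7 against 19.8%, in neutrophils 5 against 16.8%, in T cells 4 against 15.9%, in dendritic-gate cells 2 against 13.6% and in basophil-gate cells 0 against 4.26%. The median log2 ratio of the 10 was 1.26 in Cd74-positive tumour cells, 1.56 in macrophages and 1.61 in monocytes. Over all genes tested it was 0.06, -0.16 and -0.21 in those gates. With cells of 1 gate only (9900 genes tested) the counts were 6 of 10 (0.404% of all genes) in Cd74-positive tumour cells, 8 (19.6%) in macrophages and microglia, 7 (18.1%) in monocytes, 5 (13.4%) in neutrophils, 2 (12%) in basophils, 2 (17.4%) in dendritic cells and 4 (14.1%) in T cells. The basophil and dendritic counts were near the share of all genes.

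**Figure D2:**
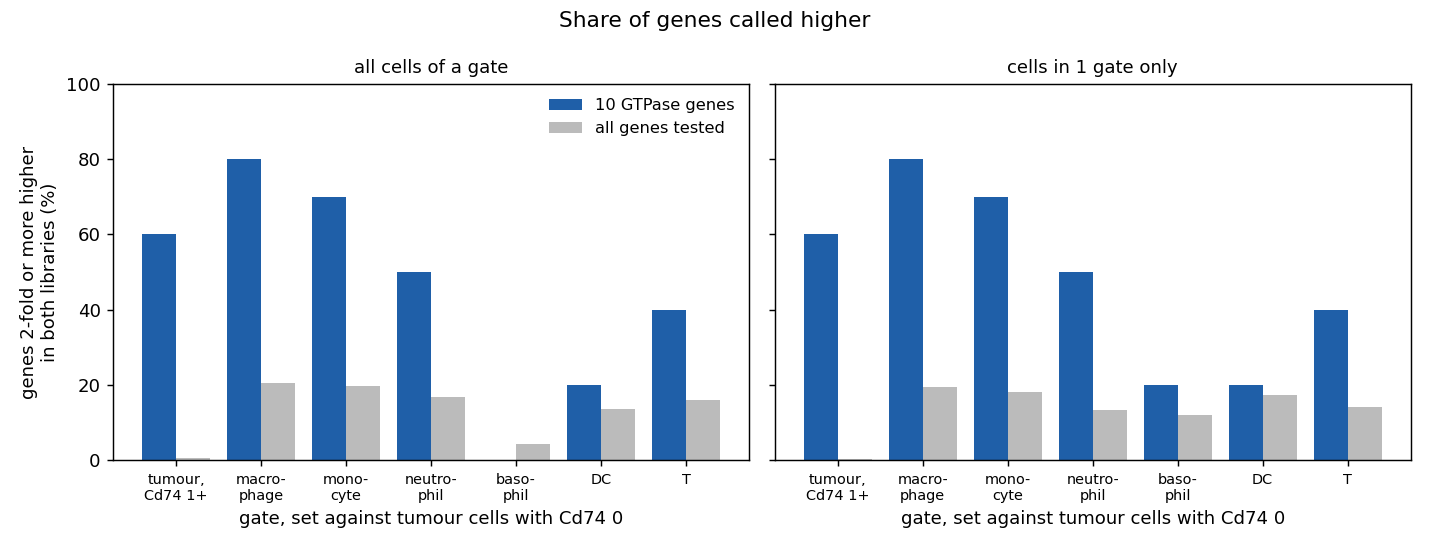
Percent of the 10 GTPase genes (blue) and of all genes tested (grey) that were at least 2-fold higher in both libraries than in Cd74-0 tumour cells, for 7 gates; the left panel uses all cells of a gate and the right panel cells in 1 gate only. The blue bars stand far above the grey ones for Cd74-positive tumour cells (6 of 10), macrophages (8 of 10) and monocytes (7 of 10), and close to them for dendritic cells (2 of 10).

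Among the GBPs, Gbp2 (chromosome 3, bases 142620602 to 142638008 of GRCm38, plus strand), which is recruited to bacteria and parasite vacuoles, differed widely between leukocytes. It measured 260 and 200 CPM in Cd74-positive tumour cells, 419 and 384 CPM in macrophages, 293 and 632 CPM in monocytes, and 74.0 and 86.1 CPM in Cd74-0 tumour cells. In cells of 1 gate it was 790 and 797 CPM in neutrophils, 303 and 243 CPM in basophils, 145 and 152 CPM in dendritic cells, 46.4 and 26.5 CPM in T cells, and 75.0 and 89.1 CPM in Cd74-0 tumour cells. Among cells of 1 gate neutrophils had the highest Gbp2 level and T cells the lowest, with no overlap with their neighbours in that order. In all cells of the gates Gbp2 measured 364 and 500 CPM in neutrophils, 79.7 and 106 CPM in basophil-gate cells, 185 and 81.1 CPM in dendritic-gate cells, and 84.9 and 145 CPM in T cells. There monocytes had the highest mean and Cd74-0 tumour cells the lowest, and the T cells stood above Cd74-0 tumour cells in each library (log2 ratio 0.20 and 0.75), where T cells of 1 gate stood below them (-0.68 and -1.71). The neutrophil value rests on 31 cells with 70582 UMIs in all.

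Gbp5, which promotes assembly of the NLRP3 inflammasome, showed the widest range between all cells of the gates, 39.1-fold between the mean of the highest gate and that of the lowest. It measured 8.26 and 9.16 CPM in Cd74-positive tumour cells, 86.5 and 97.9 CPM in macrophages, 81.1 and 99.7 CPM in monocytes, and 1.68 and 3.04 CPM in Cd74-0 tumour cells. Dendritic cells of 1 gate reached 123 CPM in each library, against 1.70 and 3.11 CPM in Cd74-0 tumour cells, and all cells of that gate 57.5 and 53.4 CPM. The 3 highest gates did not overlap with either tumour gate. Cells of 1 gate had a log2 ratio over Cd74-0 tumour cells of 5.52 and 4.91 in dendritic cells and of 5.09 and 4.60 in macrophages. Gbp5 lies on chromosome 3, bases 142493978 to 142522344, plus strand.

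Gbp4 and Gbp6, both on the minus strand of chromosome 5 (bases 105115767 to 105139586 and 105270702 to 105293698), had their highest mean level in T cells of 1 gate. Gbp4 measured 124 and 90.1 CPM there, 89.5 and 77.8 CPM in Cd74-positive tumour cells, 61.6 and 54.0 CPM in macrophages, and 18.9 and 16.001 CPM in Cd74-0 tumour cells. Gbp4 was thus higher in Cd74-positive tumour cells than in macrophages in both libraries. Gbp6 measured 30.9 and 21.2 CPM in T cells, 16.6 and 16.5 CPM in macrophages, 5.15 and 5.91 CPM in Cd74-positive tumour cells, and 2.61 and 2.95 CPM in Cd74-0 tumour cells. The T cell value of Gbp6 rested on 4 UMIs in each library. Its exact 95% interval over both libraries was 10.9 to 49.6 CPM, against 12.9 to 20.8 CPM in macrophages. For Gbp4 the interval was 71.4 to 146 CPM in T cells and 78.8 to 88.2 CPM in Cd74-positive tumour cells. Both first ranks thus lay within counting error. In all T-gate cells Gbp4 measured 76.8 and 87.3 CPM and Gbp6 20.2 and 13.2 CPM, and there both overlapped with another gate. Gbp4 overlaps Gbp8 and Gbp9 on the same strand and Gbp6 overlaps Gm43302, so reads of these genes may have been lost or split, and both levels are uncertain to that extent.

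Gbp3 (bases 142560026 to 142573209) and Gbp7 (142530342 to 142550149), also on the plus strand of chromosome 3, differed less between gates, and Gbp7 overlaps Gm43802 on its strand. Gbp7 measured 99.1 and 82.8 CPM in Cd74-positive tumour cells, 168 and 164 CPM in macrophages, 115 and 180 CPM in monocytes, and 42.5 and 49.9 CPM in Cd74-0 tumour cells. Basophils of 1 gate had 148 and 141 CPM of Gbp7, against 48.8 and 57.7 CPM in all basophil-gate cells, and with Gbp2 it was 1 of 2 genes called higher there. Gbp3 measured 100 and 87.1 CPM in Cd74-positive tumour cells, 95.8 and 93.6 CPM in macrophages, 90.5 and 143 CPM in monocytes, and 45.6 and 50.5 CPM in Cd74-0 tumour cells. These Gbp3 levels in Cd74-positive tumour cells and macrophages overlapped, and both were under the 2-fold line in library 2 (log2 ratio 0.77 and 0.88).

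The regulatory IRGs were shared between tumour cells and leukocytes. Irgm1 (chromosome 11, bases 48861968 to 48871683, minus strand), which protects stimulated cells from their own effector IRGs and is tied to autophagy, measured 246 and 222 CPM in Cd74-positive tumour cells, 172 and 176 CPM in macrophages, 209 and 225 CPM in monocytes, and 128 and 125 CPM in Cd74-0 tumour cells. The Cd74-positive tumour cells were above the macrophages in both libraries. In cells of 1 gate Irgm1 measured 299 and 246 CPM in monocytes and 269 and 225 CPM in Cd74-positive tumour cells. In macrophages the log2 ratio over Cd74-0 tumour cells was 0.43 and 0.49, under the 2-fold line in each library. Igtp measured 124 and 122 CPM in Cd74-positive tumour cells, 124 and 120 CPM in macrophages, 140 and 146 CPM in monocytes, and 46.6 and 47.1 CPM in Cd74-0 tumour cells. The first 2 of these gates overlapped. In cells of 1 gate Igtp was highest in neutrophils, at 243 and 292 CPM, and in T cells, at 155 and 307 CPM, while all cells of these gates had 95.7 and 187 CPM in neutrophils and 125 and 246 CPM in T cells. Irgm2 measured 27.0 and 22.6 CPM in Cd74-positive tumour cells, 29.0 and 25.7 CPM in macrophages, 49.9 and 37.2 CPM in monocytes, and 10.4 and 10.5 CPM in Cd74-0 tumour cells. Igtp (chromosome 11, bases 58199556 to 58207591) and Irgm2 (58199618 to 58222782) overlap on the plus strand, so the authors' counting could have lost or split their reads.

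The effector Iigp1, which coats and breaks parasite vacuoles, was highest in tumour cells with Cd74. It measured 433 and 355 CPM in Cd74-positive tumour cells, 313 and 319 CPM in macrophages, 179 and 147 CPM in monocytes, and 152 CPM in Cd74-0 tumour cells of each library. In cells of 1 gate it measured 479 and 359 CPM in Cd74-positive tumour cells, above the 343 and 346 CPM of macrophages and above all other gates. Monocytes overlapped with Cd74-0 tumour cells in the gates as a whole. In cells of 1 gate monocytes had 94.1 and 116 CPM of Iigp1, below the 157 and 158 CPM of Cd74-0 tumour cells. In the neutrophil gate as a whole Iigp1 measured 19.1 and 586 CPM, but in neutrophils of 1 gate it had 0 of 70582 UMIs. A count of 0 allows up to 42.5 CPM over that gate, at least 3.71-fold lower than the mean of 158 CPM in Cd74-0 tumour cells of 1 gate. Those same neutrophils held Gbp2 at the highest level measured. In basophils of 1 gate Iigp1 measured 41.2 and 141 CPM, against 91.2 and 121 CPM in all basophil-gate cells, yet 6 of 138 cells carried any UMI of it. Such intervals and limits cover counting error only. Iigp1 lies on chromosome 18, bases 60376027 to 60392634, plus strand.

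Leukocyte marker RNA in the tumour cells was measured beside the GTPase genes. In cells of 1 gate the 9 macrophage and microglia markers summed to 23.5 and 34.4 CPM in Cd74-positive tumour cells, against 23.0 and 26.0 CPM in Cd74-0 tumour cells, and P2ry12, a marker of microglia, was at 0 UMIs in the Cd74-positive cells. In the same cells, C1qa in Cd74-positive tumour cells was 0.0152% and 0.0162% of its level in macrophages, and in Cd74-0 tumour cells 0.0111% and 0.0116%. A tumour cell with at least 5 C1qa UMIs also met the macrophage gate and was left out here. The low C1qa share in cells of 1 gate was therefore set in part by the gates. Ptprc, the pan-leukocyte antigen CD45, was at 0.107% and 0.152% in Cd74-positive and 0.0642% and 0.0623% in Cd74-0 tumour cells. The GTPase genes stood at far higher shares of their macrophage levels. In Cd74-positive tumour cells they ran between 9.17% (Gbp5, library 2) and 146% (Irgm1, library 1), and in Cd74-0 tumour cells between 1.86% (Gbp5, library 1) and 71.3% (Irgm1, library 2). In all cells of the gates, which include 6 cells of library 1 and 1 of library 2 that met both the macrophage and a tumour gate, C1qa reached 0.721% and 0.121% in Cd74-positive tumour cells and 0.0132% and 0.0125% in Cd74-0 tumour cells. Without every tumour cell that carried a UMI of Ptprc, Tyrobp, Fcer1g, C1qa or Cd3e, the sum of the 10 was 1469 and 1108 CPM in 111 and 84 Cd74-positive tumour cells, and 528 and 566 CPM in 798 and 657 Cd74-0 tumour cells. In those cells 4 genes (Gbp4, Gbp5, Iigp1 and Igtp) were called higher in place of 6, against 0.329% of all genes, and with cells of 1 gate only as well, 3 (Gbp4, Gbp5 and Igtp), against 0.283%. Of the genes lost from the 6, Gbp2 measured 183 CPM in Cd74-positive and 92.4 CPM in Cd74-0 tumour cells of library 2 without leukocyte UMIs, and Irgm2 measured 20.4 CPM in those Cd74-positive and 10.97 CPM in those Cd74-0 tumour cells, both under the 2-fold line.

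**Figure D3:**
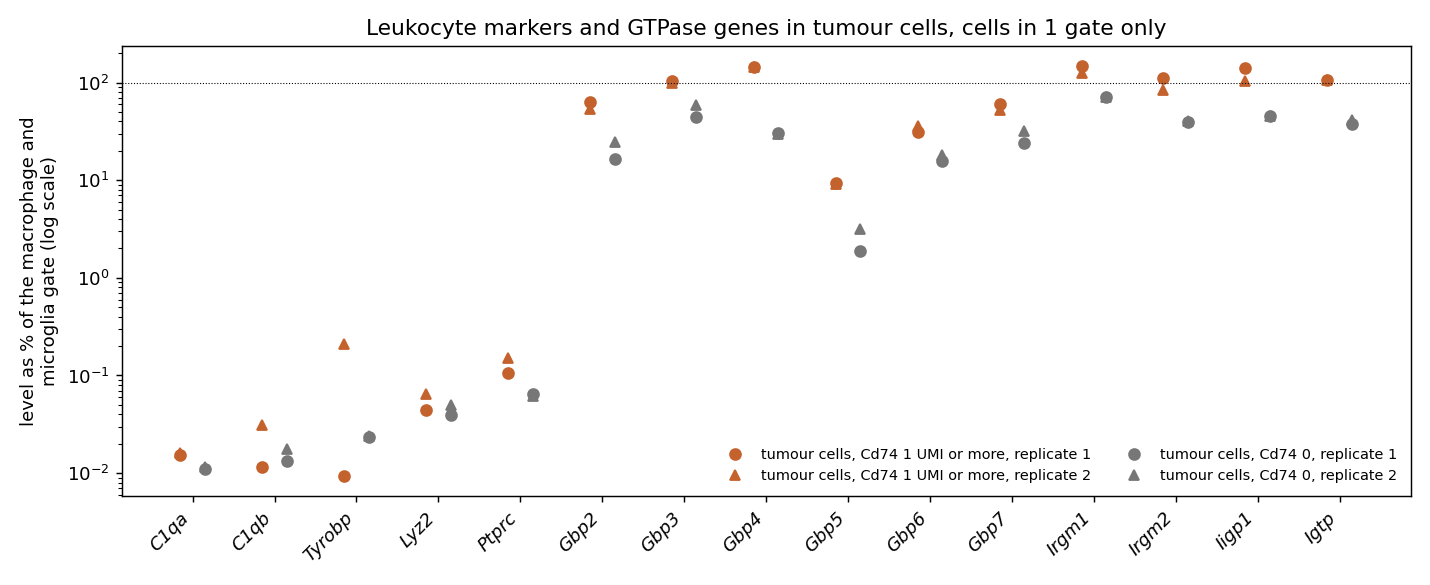
Level of 5 leukocyte markers and the 10 GTPase genes in tumour cells as a percent of the level in macrophages and microglia (log axis, cells in 1 gate only); orange marks tumour cells with Cd74, grey those with Cd74 0, circles replicate 1 and triangles replicate 2. Leukocyte markers lie under 1% while every GTPase gene lies above it, Gbp5 lowest. Tumour cells with at least 5 C1qa UMIs are left out by the gates, so the C1qa share is low in part by the rule.

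Depth differed across the Cd74 split, since Cd74-positive tumour cells had a median of 49873 and 57078 UMIs and Cd74-0 tumour cells 40484 and 46149.5. Each tumour cell was therefore thinned to 10000 UMIs, which left 1915 cells, with 66 and 48 Cd74-positive and 980 and 821 Cd74-0 cells; 34 and 32 shallower cells were left out. At equal depth the sum of the 10 genes was 1777 and 1494 CPM in Cd74-positive and 571 and 580 CPM in Cd74-0 tumour cells, a log2 ratio of 1.64 and 1.36. Unthinned, the split gave 1382 and 1179 CPM in Cd74-positive and 521 and 542 CPM in Cd74-0 cells. The thinned cells were split on their thinned Cd74 counts, which left 114 Cd74-positive cells in place of 255. The 2 splits thus hold different cells at an unlike Cd74 cut, and the part of depth in the change was not tested. At equal depth every member had a higher level in Cd74-positive cells in both libraries, with log2 ratios from 0.64 (Irgm2, library 2) to 2.65 (Gbp4, library 2). The mean of GTPase UMIs per cell was 5.71 and 5.80 in cells with no Cd74 UMI and 12.97 and 9.90 in cells with 1 Cd74 UMI. In cells with 2 to 4 it was 22.8 and 10.8, and in those with 5 or more 23.0 and 28.9, the last 2 classes with under 20 cells in each library. C1qa had a UMI in 15.4% and 8.33% of the cells with 5 or more, at a mean of 8 and 2.75 UMIs per cell. Its share was 5.26% and 0% with 2 to 4 Cd74 UMIs, and 5.88% and 0% with 1. With no Cd74 UMI it was 2.04% and 1.83%. The part of macrophage RNA in the GTPase means of these classes was not tested.

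The tumour cells were uneven in these genes, and the unevenness crossed the Cd74 split. At 10000 UMIs, 9.92% of tumour cells (190 of 1915) carried at least 20 GTPase UMIs, and these cells held 50.8% of all GTPase UMIs of the tumour cells. In library 1 they were 45.5% of Cd74-positive cells (95% exact binomial interval 33.1 to 58.2%) and 8.27% of Cd74-0 cells (6.62 to 10.2%). In library 2 they were 31.2% of Cd74-positive cells (18.7 to 46.3%) and 7.80% of Cd74-0 cells (6.05 to 9.85%). Even so, 145 of the 190 cells (76.3%) had no Cd74 UMI at this depth. At the other end, 12.3% of Cd74-positive and 30.5% of Cd74-0 tumour cells had no GTPase UMI at all. For scale, C1qa had a UMI in 2.04% and 1.83% of the same Cd74-0 cells, all thinned to the same depth.

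**Figure D4:**
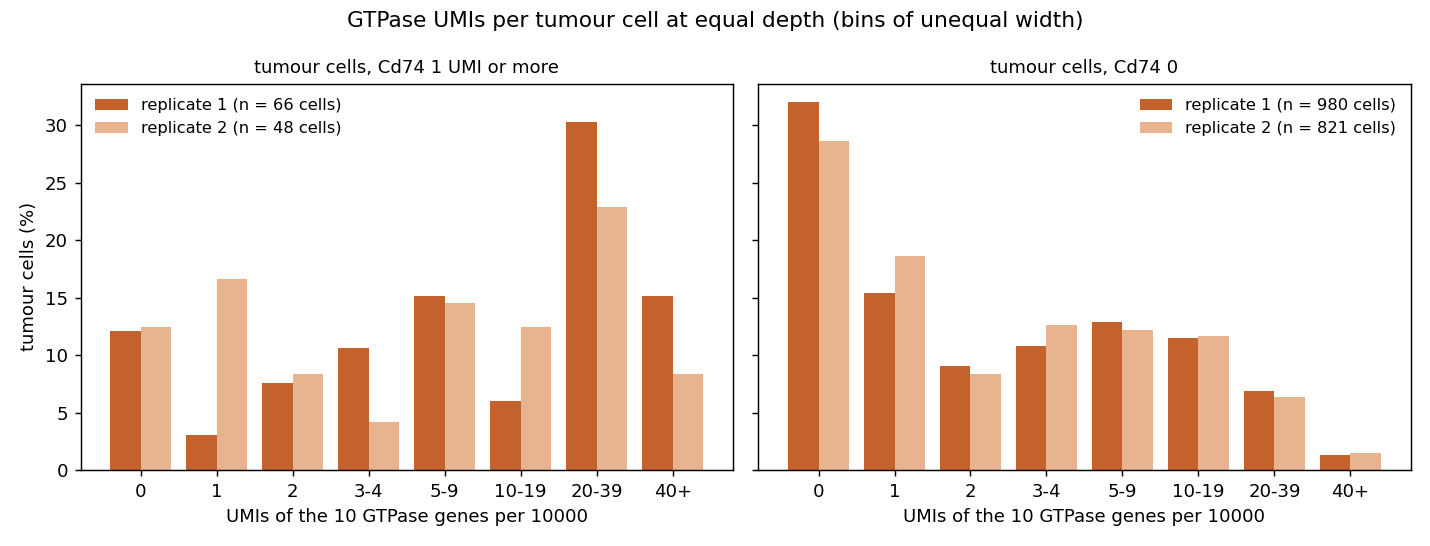
Percent of tumour cells by the number of UMIs of the 10 GTPase genes after thinning each cell to 10000 UMIs, for Cd74-positive cells (left) and Cd74-0 cells (right), dark bars for replicate 1 and light bars for replicate 2. Cells with 20 or more UMIs make up 45.5% and 31.2% on the left and 8.27% and 7.80% on the right, where cells with 0 are the largest class.

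Within single tumour cells the GTPase genes were found together. At 10000 UMIs the median number of the 10 with a UMI was 5 in Cd74-positive and 1 in Cd74-0 tumour cells, and at least 5 were found in 52.6% and 20.3% of them. The median Spearman correlation over the 45 pairs of genes was 0.37 across 114 Cd74-positive cells and 0.35 across 1801 Cd74-0 cells. The pair with the highest value among Cd74-positive cells was Gbp2 with Gbp4, at 0.76. Each gene correlated with the sum of the other 9, most for Iigp1 (0.70) and Irgm1 (0.64) and least for the sparsely counted Gbp5 (0.22) and Gbp6 (0.19). Cells of a library share its preparation and its free RNA, and sparse counts pull correlations toward 0, so these values are descriptions. At a common depth of 2000 UMIs the median over pairs was 0.21 in Cd74-positive tumour cells, 0.05 in macrophages and microglia, 0.14 in monocytes, 0.11 in basophils, 0.09 in dendritic cells, 0.11 in T cells and 0.11 in Cd74-0 tumour cells of 1 gate. At that depth the mean number of GTPase UMIs per cell was 2.89 in Cd74-positive tumour cells, 2.67 in macrophages and 1.10 in Cd74-0 tumour cells. Their variance was 5.23, 2.77 and 4.03 times that mean. Macrophages thus had nearly the mean of Cd74-positive tumour cells with less spread from cell to cell.

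Across the 1915 tumour cells, the other genes closest to the GTPase sum were Ifi47 (an IRG, rho = 0.58), Psmb8 (0.58) and Psmb10 (0.56) of the immunoproteasome, Bst2 (0.57), Ifitm3 (0.56), Zbp1 (0.52), Ly6a (0.52), Gm4951 (0.52), Psme1 (0.50) and Tap1 (0.49). The median over 8905 genes compared was 0.01 and 58 genes reached 0.3. Cd74 itself ranked 180, at 0.18. Summed UMIs of the type I interferon targets and of the interferon-gamma targets followed the GTPase sum about equally in Cd74-0 tumour cells (rho = 0.65 and 0.63), and less so in Cd74-positive cells for the type I list (0.63 against 0.78, n = 114 cells, a difference that was not tested). Receptors and kinases hardly followed it (rho = 0.13 in Cd74-0 cells). Over the 16 sums of 8 gates and 2 libraries, the genes most like the mean log2 level of the 10 were Psmb10 (r = 0.92), Ccl2 (0.91), Ly6e (0.88), Adam10 (0.88), Dpysl2 (0.87), H2-DMb1 (0.86), Ifi35 (0.86), Gatd1 (0.85), Ifih1 (0.85) and Tmem173 (0.85). Sums of 1 library share its preparation, and overlapping gates share cells. With members left out, the gene nearest to each member alone was Rnf213 for Gbp2 (0.92), Phf11d for Gbp3 (0.90), Ly6a for Gbp4 (0.92), Gdap10 for Gbp5 (0.95), Kif13b for Gbp6 (0.94), Rab5c for Gbp7 (0.90), Batf2 for Irgm1 (0.92), Usf1 for Irgm2 (0.87), F830016B08Rik for Iigp1 (0.91) and Ccng1 for Igtp (0.87). Igtp and Gbp7 were nearer to each other than to these genes (r = 0.8989 with each other, 0.8986 between Gbp7 and Rab5c).

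Among genes of interferon signalling, 1 of 10 ligand genes passed the filter, and among the gates it was highest in T cells. Before any filter, the 10 ligand genes together averaged 0.0122 UMIs per cell in Cd74-0 tumour cells thinned to 10000 UMIs. No gate was set for natural killer cells. What induced the GTPase genes in these cells was not tested. Ifng, the gene of interferon-gamma, was the only 1 of 10 interferon ligand genes to pass the filter. It measured 224 and 95.4 CPM in T cells of 1 gate, with 29 and 18 UMIs, against 1 UMI in dendritic cells of library 1 and 0 in the other gates, both tumour gates included. Ifng thus passed the filter through its T cell level. In all cells of the gates its mean log2 ratio over Cd74-0 tumour cells was 7.11 in T cells, 2.98 in monocytes and 1.98 in macrophages. Of these only the T cells were called higher. None of 7 receptor and kinase genes was called higher in Cd74-positive tumour cells, near the 0.758% share of all genes. In macrophages 6 of 7 were, against 20.6% of all genes. Ifngr1, the ligand-binding receptor chain, measured 42.8 and 45.9 CPM in Cd74-positive tumour cells, 380 and 449 CPM in macrophages, and 38.9 and 38.8 CPM in Cd74-0 tumour cells. The tumour gates thus differed little in it, by a log2 ratio of 0.14 and 0.24.

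Of 10 transcription factors, 2 were called higher in Cd74-positive tumour cells (Ciita and Batf2) and 8 in macrophages, against 0.758% and 20.6% of all genes. Batf2, a partner of IRF1, measured 23.9 and 20.8 CPM in Cd74-positive tumour cells, 28.6 and 27.1 CPM in macrophages, and 4.83 and 5.24 CPM in Cd74-0 tumour cells. Irf1 missed the 2-fold line in library 2 (log2 ratio 1.11 and 0.94), but was called higher with cells of 1 gate. Socs1, which dampens JAK signalling, was the 1 called of 4 feedback inhibitors, against 0.758% of all genes. It measured 61.9 and 57.1 CPM in Cd74-positive tumour cells and 24.4 and 25.5 CPM in Cd74-0 tumour cells.

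Of 17 interferon-gamma targets that passed the filter, 7 were called higher in Cd74-positive tumour cells, against 0.758% of all genes. They were Cd74, on which the cells were chosen, its partners H2-Aa and H2-Ab1, the chemokines Cxcl9 and Cxcl10, Psmb9 and Serpina3g. The list's median log2 ratio was 0.91. Cxcl9 measured 58.7 and 46.6 CPM in Cd74-positive tumour cells, 479 and 452 CPM in macrophages, and 1.48 and 4.19 CPM in Cd74-0 tumour cells. Of 19 type I interferon targets none was called higher in Cd74-positive tumour cells, near the 0.758% share of all genes. Their median log2 ratio was 0.44, against 0.06 over all genes. Isg15, a ubiquitin-like modifier, measured 328 and 365 CPM in Cd74-positive and 242 and 265 CPM in Cd74-0 tumour cells. In macrophages 16 of the 17 interferon-gamma targets and 9 of the 19 type I targets were called higher, against 20.6% of all genes, and 1 type I target, Ifi44, was called lower. These lists were drawn up with results of these data known, and the difference between them was not tested.

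Of 16 other GBP and IRG genes in the files, 9 passed the filter. Of these, 4 were called higher in Cd74-positive tumour cells (Gbp8, Ifi47, Gm4951 and F830016B08Rik) and 6 in macrophages, against 0.758% and 20.6% of all genes. Ifi47 measured 104 and 102 CPM in Cd74-positive tumour cells, 80.1 and 75.5 CPM in macrophages, and 44.8 and 45.1 CPM in Cd74-0 tumour cells. Tgtp1, an effector IRG, went the other way from the rest: it measured 12.1 and 16.1 CPM in Cd74-positive tumour cells, 1.43 and 1.45 CPM in macrophages, and 7.31 and 7.49 CPM in Cd74-0 tumour cells, and was called lower in macrophages. Its near-identical copy Tgtp2 was called higher in macrophages, and reads of the pair may have been lost or misassigned. Of 10 autophagy genes and GBP partners none was called higher in Cd74-positive tumour cells, near the 0.758% share of all genes. In macrophages 4 were, against 20.6% of all genes, among them Casp4 (caspase-11, which GBPs help to reach bacterial lipopolysaccharide), Aim2 and Nlrp3. Gabarapl1 was called lower there.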

How the data were processed

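The 2 droplet libraries of mouse brain tumour, in 1 group, gave deposited matrices of raw UMI counts per gene and barcode. Per the labels, the authors counted UMIs with Cell Ranger 3.1 after STAR alignment to mm10, and brought runs to equal depth; the totals of the deposited count matrices differ, and they were used as they are. The annotation is not given in the sources used here. Gene positions came from GENCODE M21 (30934 of 31053 identifiers matched). The 10 genes, the gates and the 8 gene lists were chosen with earlier results of these data known. Doublets were not called. Cells were kept with 200 genes and at most 15% mitochondrial UMIs, UMIs were summed per gate and library and scaled to CPM, and a gene was called when (CPM + 1) differed 2-fold in the same direction in both libraries, with a mean of at least 5 CPM over 16 sums. Pattern likeness used log2(CPM + 1) and Pearson's r, cells Spearman's rho, named by rank: the 10 nearest genes, and 1 for each member. Intervals are exact at 95%, and a count of 0 allows 3 UMIs over the gate. The call was tested on simulated data. A gene of the pathway lists is counted with its list and not reported singly here. Software was Python 3.11.15, numpy 2.4.6, scipy 1.17.1, pandas 2.3.3, and edgeR 4.0.16 in R 4.3.3, used for TMM factors as an alternative. With 2 libraries in 1 group no test between samples was made. The 20 alternatives are listed in the closing section.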

Additional observations from a re-analysis of the deposited data

Results flagged for a closer look

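Kept cells that met none of the 8 gates, 206 in library 1 and 125 in library 2, held the 10 GTPase genes at a summed 864 and 936 CPM, above the 0.723 and 1.22 CPM that a count of 0 would allow there. In the same cells Nras measured 658 and 592 CPM, Cd74 657 and 1128 CPM, Hba-a1 626 and 667 CPM, C1qa 6.03 and 12.6 CPM and Ptprc 40.01 and 51.1 CPM. Barcodes that the filters removed, 964 in library 1 and 820 in library 2, held the genes at 148 and 122 CPM, with Hba-a1, a haemoglobin gene, at 42630 and 49397 CPM, C1qa at 826 and 199.6 CPM and Nras at 147 and 213 CPM. Neither set enters a comparison above, and what cells they hold was not tested.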

How the results depend on the processing

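The calls were recomputed under 20 alternatives, 18 of them planned and 2 chosen after seeing the data (cells of 1 gate with tumour cells free of leukocyte UMIs, and without barcodes found in both libraries). The number of genes called higher in Cd74-positive tumour cells, 6, was 10 when the gate needed 2 Cd74 UMIs (1.44% of all genes), 1 at a 4-fold line (0.2%), and 3 (0.283%) with cells of 1 gate and without tumour cells carrying leukocyte UMIs. At the 4-fold line it was 3 in macrophages (11.6% of all genes), 1 in monocytes (11.6%), 1 in neutrophils (9.93%), 1 in dendritic-gate cells (7.28%) and 1 in T cells (9.25%). In the neutrophil gate it was 3 with thinned tumour cells (16.5% of all genes). In the basophil gate it was 0, against 4.26% of all genes. With cells of 1 gate it was 2 (11.97%), and again 2 when tumour cells carrying leukocyte UMIs were also left out (11.99%). With doubled thresholds it was 1 (8.36%), and by the mean of per-cell CPM 3 (11.97%). The share of all genes thus rose in these settings too. In the dendritic gate it was 1 with thinned tumour cells (13.3% of all genes), doubled thresholds (16.7%), median-of-ratios factors (11.8%) or TMM factors (11.4%). Without library 1 and without library 2 it was 6 and 8 in Cd74-positive tumour cells, against 1.23% and 1.76% of all genes. In the same order it was 8 and 9 in macrophages (22.3% and 22.4%), and 8 and 7 in monocytes (23.1% and 22.9%). Neutrophils had 10 and 5 (22.2% and 23.7%), and dendritic-gate cells 2 and 4 (16.1% and 17.0%). T cells had 5 and 4 (21.6% and 20.5%), and basophil-gate cells 0 both times (4.96% and 5.09%). Under the other alternatives each count stayed within 1.5 times its value. The causes of these shifts were not tested. No paired analysis was possible because both libraries belong to 1 group and no groups of samples could be paired; ratios between gates were taken within each library throughout. Depth limits the neutrophil values most, since cells of that gate alone held 70582 UMIs.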
